A study of Mus musculus with 21 samples.

Results

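Mouse oocytes that keep a single functional *Kif11* allele were obtained in this study in different ways, and 2 of these genotypes were compared across all genes. In *Kif11* fl/del oocytes (4 libraries), a constitutively deleted allele (del) faces a floxed allele (fl) and no Cre is present, so the floxed allele is the functional one. In *Kif11* wt/fl Spo11-Cre oocytes (5 libraries), the Cre transgene Tg(Spo11-cre)1Rsw removes the floxed allele and the wild-type allele (wt) is left. These are 9 of the 21 libraries in the series, chosen by the genotype in their labels. The other 8 libraries of the Spo11-Cre background, wt/fl without Cre (4) and fl/del with Spo11-Cre (4), were used as a reference. All were made from fully grown oocytes at the germinal vesicle stage, 3 per library, from females 3 to 4 months old of C57BL/6 background that had been primed with eCG or HyperOva. Each mouse gave 1 or 2 libraries. The names of the fl/del libraries have 2 prefixes and those of wt/fl Spo11-Cre have 3, and no prefix occurs in both genotypes, so p-values measure the spread between libraries and not fully that between mice.

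The 2 genotypes differ at once in the allele that is kept (fl or wt), in the del allele and in the Cre transgene, and within this pair these differences cannot be told apart. *Kif11* encodes kinesin-5 (Eg5), a motor protein of the spindle whose activity drives the poles away from each other. Oocytes of the mouse build their meiotic spindle without centrosomes, from many microtubule-organizing centers, and rely on mRNA stored during growth because transcription is silent in the fully grown stage. *Spo11* encodes the protein that makes the DNA double-strand breaks of meiotic recombination, and a Cre under its promoter is active in early meiotic prophase, long before the oocyte grows.

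Total counts per library ranged from 7205010 to 18454549, and fl/del replicate 3 had the lowest. Markers of the fully grown oocyte (13 genes, among them *Gdf9*, *Bmp15*, *Zp3* and *Mos*) summed to between 41720 and 44030 counts per 1000000 of the library's total (CPM) in fl/del and between 38460 and 44000 CPM in wt/fl Spo11-Cre, and the groups overlapped (two-sided exact permutation test, p = 0.19). Of 20 granulosa and cumulus cell markers, 5 (*Amhr2*, *Foxl2*, *Inhbb*, *Ptx3* and *Tnfaip6*) had no count in any of the 9 libraries. The 20 summed to between 101.7 and 117.5 CPM in fl/del and between 73.6 and 103 CPM in wt/fl Spo11-Cre. The two-sided exact permutation test gave p = 0.0317, and 0.0951 after Benjamini-Hochberg adjustment over 3 marker lists. With TMM library sizes its unadjusted p was 0.0159. In edgeR 14 of these markers were tested, with a median log2 fold change of 0.71. Of the 14, 5 had an unadjusted p under 0.05, a larger share than the 9.24% of all tested genes. Only 4 had a mean count of at least 10, with a median of 0.29. The part of this marker difference in the results below was not tested. The 11 theca and stroma markers summed to 4.37 and 3.65 CPM (exact p = 0.429) and the 12 blood and vessel markers to 25.8 and 26.0 CPM (exact p = 0.968). Each library pools 3 oocytes, so a lower level in all of them and a loss in some of them cannot be told apart. Values are relative to the library total, so the total RNA per oocyte does not show.

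*Kif11* itself was first examined, since the labels predict that both genotypes hold it at a reduced level. Over all exons it was at 12.9, 12.7, 7.50 and 14.6 CPM in fl/del and at 25.5, 30.5, 21.8, 27.6 and 17.6 CPM in wt/fl Spo11-Cre. All 4 fl/del libraries lay below all 5 wt/fl Spo11-Cre libraries. The mean was 11.9 ± 3.06 CPM (SD, n = 4) with the floxed allele alone and 24.6 ± 5.04 CPM (SD, n = 5) with the wild-type allele alone, a ratio of 48.5%, and the two-sided exact permutation test gave p = 0.0159, the smallest value that 4 against 5 libraries allow. The difference in edgeR was -1.03 on the log2 scale (SE 0.21, adjusted p = 0.00823). Without fl/del replicate 3, whose level was the lowest, it was -0.88 with an adjusted p of 0.0619, and in limma on log2(TPM + 1) the adjusted p was 0.23. The wt/fl libraries without Cre were at 38.9, 43.2, 23.8 and 32.2 CPM. Against them, the log2 fold change in edgeR was -1.50 for fl/del (adjusted p = 8.47e-05). For wt/fl Spo11-Cre it was -0.47 (adjusted p = 0.237), and the CPM overlapped. The predicted reduction thus passed the test in fl/del only.

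The deposited tables also hold *Kif11* counted over its first and its last exon alone. The gene lies on the plus strand of chromosome 19 (GRCm38, chr19:37376403-37421859), with exon 1 at chr19:37376403-37376667 and exon 22 at chr19:37420259-37421859. It is overlapped by the annotated genes *AC137605.4*, on the same strand, and *AC137605.6*, on the other. Exon 1, which holds the start codon, is shown by the coding bases it carries, with the start codon in capitals, since it is the part that stands for a full-length transcript in the first of these tables:
Kif11 coding part of exon 1: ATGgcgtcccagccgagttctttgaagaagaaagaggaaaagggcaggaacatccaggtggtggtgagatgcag
Over exon 1 the fl/del libraries held 10, 8, 1 and 5 counts and the wt/fl Spo11-Cre libraries 7, 29, 23, 15 and 6. The groups overlapped, at 0.754 ± 0.421 CPM (SD, n = 4) and 2.03 ± 1.47 CPM (SD, n = 5), and the exact permutation p was 0.111. Over exon 22 the fl/del libraries held 24, 30, 3 and 18 counts and the wt/fl Spo11-Cre libraries 48, 50, 56, 55 and 51, at 2.34 ± 1.17 and 6.37 ± 0.797 CPM (SD), without overlap (exact p = 0.0159). Pooled over libraries, fl/del had 42.7% of the wt/fl Spo11-Cre level over exon 1 (exact Clopper-Pearson interval at 95%, 25.9 to 68.2%) and 41.1% over exon 22 (31.4 to 53.3%), where the intervals cover counting error only. Over exon 1 the lowest of the wt/fl Spo11-Cre counts were in replicates 1 and 5, below the highest of the fl/del counts.

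**Figure D1:**
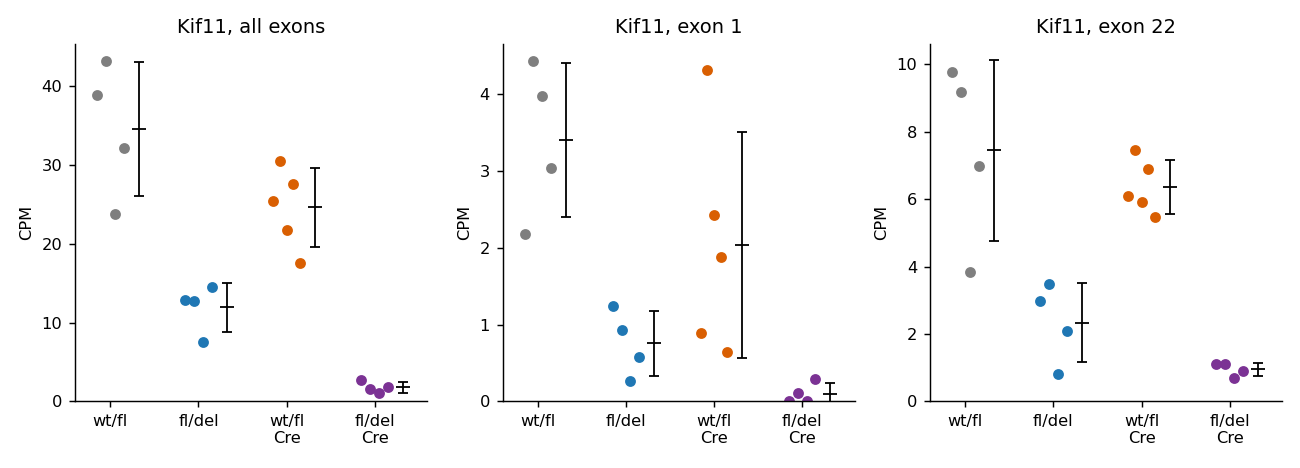
*Kif11* level in each library (points) in CPM, counted over all exons, exon 1 or exon 22, by genotype, with mean and SD beside the points (4 libraries per genotype, 5 in wt/fl Spo11-Cre). Over all exons and over exon 22 the 4 fl/del libraries sit below the 5 wt/fl Spo11-Cre libraries, and over exon 1 the groups overlap.

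Across the genome, 45 of 22383 tested genes (0.201%) differed between fl/del and wt/fl Spo11-Cre oocytes at an adjusted p under 0.05 in edgeR. Of these, 15 (0.067% of tested genes) were higher in fl/del and 30 (0.134%) were lower, and 39 were protein-coding. The changes were small for most, with a median absolute log2 fold change of 0.73, and 10 genes changed by at least 1. For 37 of the 45 genes the CPM of the groups did not overlap, as was the case for 2.84% of all tested genes, which is a description since the same libraries made the calls. Without fl/del replicate 3 the number of called genes was 27, of which 22 were among the 45, and without fl/del replicate 4 it was 20, of which 17 were among the 45. With libraries of a shared name prefix summed it was 44, of which 35 were among the 45, and the 10 calls that ended were *Gm13100*, *Mgmt*, *Hddc2*, *Tex15*, *Dpy19l1*, *Timd4*, *Susd3*, *Sptssa*, *Acy3* and *mt-Nd2*. Over all 19 alternative analyses, 15 of the 45 genes were called in 10 or fewer: *Raly*, *E330016L19Rik*, *Gm13100*, *Halr1*, *Arl8b*, *Mgmt*, *Hddc2*, *Tex15*, *Gse1*, *Dpy19l1*, *Timd4*, *Susd3*, *Zfp839*, *Acy3* and *mt-Nd2*. An unadjusted p under 0.05 was found for 2068 tested genes (9.24%).

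**Figure D2:**
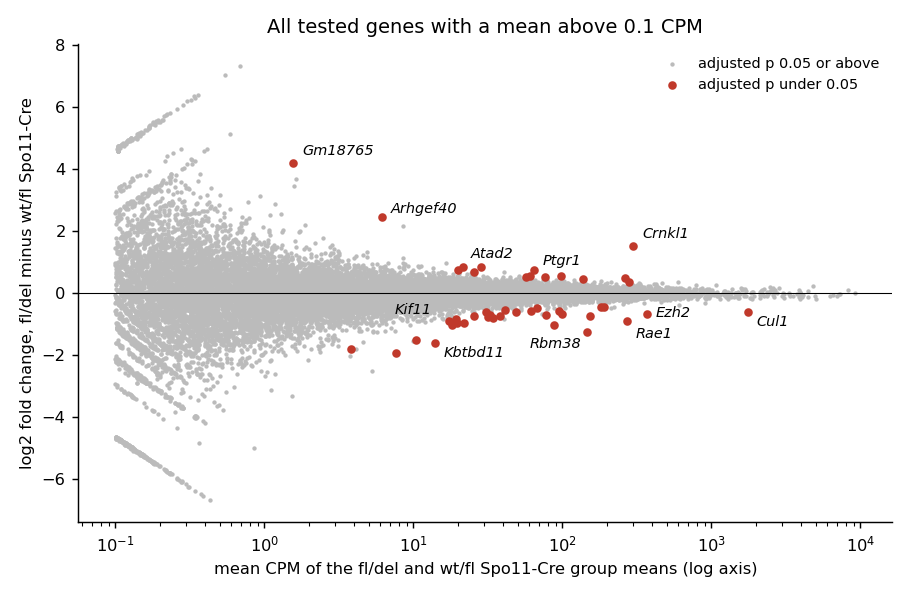
Log2 fold change of fl/del against wt/fl Spo11-Cre for each tested gene (points) by mean CPM (log axis), for genes with a mean above 0.1 CPM. The 45 called genes are red, 15 above and 30 below the line at 0, and *Crnkl1* stands out among abundant genes.

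Of the 7 called genes with the lowest p, 6 lay next to each other in pairs. *Rae1*, an mRNA export factor that also binds mitotic spindle microtubules, and *Rbm38*, an RNA-binding protein induced by p53, are adjacent on chromosome 2 (chr2:173000117-173015739 and chr2:173020498-173034734, both on the plus strand, 4758 bases apart). *Spo11* is the next annotated gene on the other side of *Rae1*, 6540 bases away. *Rae1* was at 187, 170, 184 and 213 CPM in fl/del and at 393, 329, 361, 356 and 320 CPM in wt/fl Spo11-Cre. The lowest wt/fl Spo11-Cre library was well above the highest fl/del library, and the difference was -0.91 on the log2 scale (SE 0.09, adjusted p = 7.59e-11). *Rbm38* was at 90.2, 87.1, 90.5 and 84.3 CPM in fl/del and at 202, 154, 193, 201 and 279 CPM in wt/fl Spo11-Cre, again without overlap (log2 fold change -1.24, SE 0.12, adjusted p = 7.59e-11). *Rbm38* is overlapped by the genes *Gm14453* and *Gm20490* on the other strand, whose reads cannot be told apart from it without strand.

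The *Rae1* and *Rbm38* levels in the 8 reference libraries followed the presence of Cre. *Rae1* was at 216, 206, 215 and 192 CPM in wt/fl without Cre and at 431, 344, 410 and 432 CPM in fl/del Spo11-Cre (log2 fold change of fl/del Spo11-Cre against wt/fl 0.96, SE 0.09, adjusted p = 3.33e-11). *Rbm38* was at 90.4, 127, 100 and 140 CPM in wt/fl and at 175, 193, 154 and 178 CPM in fl/del Spo11-Cre (0.61, adjusted p = 0.00591). For both genes, all 9 libraries with Cre thus lay above all 8 libraries without it, whichever *Kif11* alleles they carried. *Spo11* itself had no count in any of the 17 libraries, which allows a level of up to 0.163 to 0.416 CPM depending on the library. Of 25 tested genes within 1 Mb of the *Spo11* start, *Rae1* and *Rbm38* were called and the others were not, and those with a mean count of at least 10 ranged from -0.70 to 0.40 on the log2 scale. The transgene's sequence, its copy number and where it is inserted are not given in the sources used here.

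*Naa20*, the catalytic subunit of the N-terminal acetyltransferase NatB, and *Crnkl1*, a spliceosome component, form the second pair on chromosome 2 (chr2:145902099-145916425 on the plus strand and chr2:145917479-145935014 on the minus strand). Their 3′ ends face each other with 1053 bases between them, and the genes moved in opposite directions. *Naa20* was at 104, 113, 122 and 125 CPM in fl/del and at 156, 159, 221, 235 and 187 CPM in wt/fl Spo11-Cre (log2 fold change -0.74, SE 0.10, adjusted p = 6.52e-06). *Crnkl1* was at 477, 452, 416 and 428 CPM in fl/del and at 145, 164, 158, 148 and 145 CPM in wt/fl Spo11-Cre (1.54, SE 0.17, adjusted p = 5.17e-09). Neither gene overlapped between the groups. *Crnkl1* was the largest increase among genes with a mean above 100 CPM, and its call was lost in limma on log2(TPM + 1), with an adjusted p of 0.0728.

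The reference libraries separated *Crnkl1* from *Naa20*. *Naa20* was at 98.6, 109, 105 and 122 CPM in wt/fl and at 202, 192, 177 and 229 CPM in fl/del Spo11-Cre, so all 9 libraries with Cre lay above all 8 without. *Crnkl1* was at 143, 140, 175 and 166 CPM in fl/del Spo11-Cre, close to wt/fl Spo11-Cre. In wt/fl without Cre, however, replicates 1 and 2 were at 516 and 487 CPM, like fl/del, and replicates 3 and 4 were at 156 and 158 CPM, like the libraries with Cre. Replicates 1 and 2 share one name prefix and replicates 3 and 4 another. The *Crnkl1* level was therefore at either a high or a low value, alike within each prefix, and no library of the 17 lay between 175 and 416 CPM. *Crnkl1* overlaps *Cfap61* on the other strand, and the library kit does not mark strand, so reads in the overlap cannot be assigned to one of them. *Cfap61* had a log2 fold change of -0.81 (adjusted p = 0.474).

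*Cul1*, the scaffold of SCF ubiquitin ligases, and *Ezh2*, the histone H3 lysine 27 methyltransferase of Polycomb repressive complex, are neighbours on chromosome 6 (chr6:47453398-47526139 on the plus strand and chr6:47530139-47595341 on the minus strand, 3999 bases apart), and both were lower in fl/del. *Cul1*, the most abundant of the called genes, had a mean of 1397 CPM in fl/del and 2099 CPM in wt/fl Spo11-Cre (log2 fold change -0.59, SE 0.07, adjusted p = 3.68e-08). *Ezh2* was at 280, 290, 266 and 310 CPM in fl/del and at 419, 464, 465, 473 and 430 CPM in wt/fl Spo11-Cre (-0.66, SE 0.08, adjusted p = 6.06e-08). Both were higher with Cre in the reference libraries too, with a log2 fold change of fl/del Spo11-Cre against wt/fl of 0.61 (adjusted p = 8.42e-08) for *Cul1* and of 0.69 (adjusted p = 8.42e-08) for *Ezh2*. All 9 libraries with Cre lay above all 8 without for each gene. On the other strand, *A930035D04Rik* overlaps *Cul1*, and *Gm26625* and *Gm44282* overlap *Ezh2*. Reads in these overlaps cannot be assigned without strand. *Naa20* and *Cul1*, and further on *Zcchc7*, *Arhgef40* and *E330016L19Rik* among others, are described after their values were seen, since the rule for named genes ranked by fold change.

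**Figure D3:**
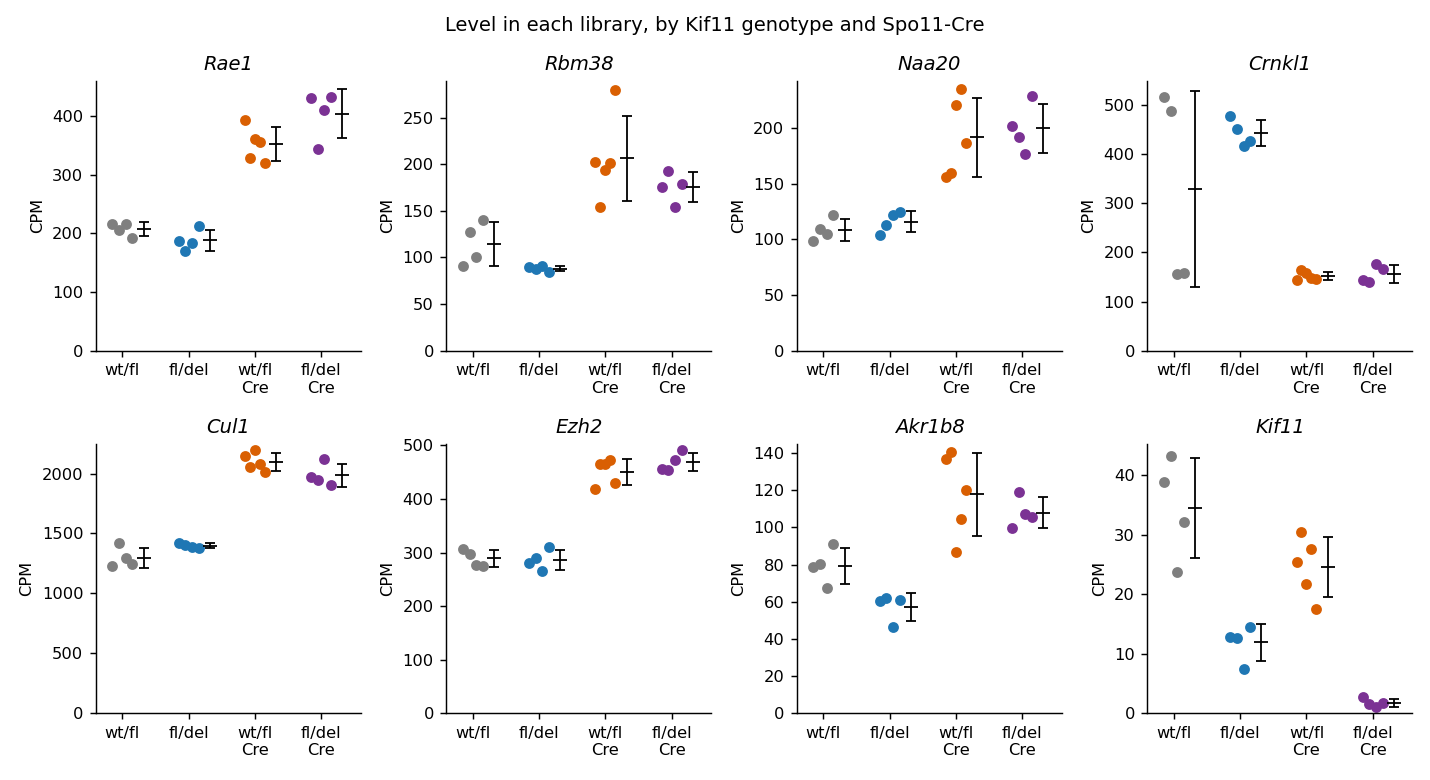
CPM of 8 genes in each of the 17 libraries (points), by genotype and Spo11-Cre, with mean and SD beside the points. *Rae1*, *Rbm38*, *Naa20*, *Cul1* and *Ezh2* are higher in all libraries with Cre, *Crnkl1* splits the wt/fl libraries into 2 high and 2 low ones, and *Kif11* is the one gene shown that is lowest in fl/del Spo11-Cre.

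Within 1 Mb of these pairs no other gene passed the test. Of 11 tested genes within 1 Mb of *Naa20*, the pair was called and no other, and of 22 around *Cul1* likewise. Around *Kif11*, 21 genes were tested and *Kif11* alone was called. The neighbours of *Kif11* with a mean count of at least 10 ranged from -0.77 to 1.30 on the log2 scale, and the ends of this range were thinly counted genes with wide errors. A list of 23 genes beside *Kif11* (19 tested) held none that passed the test, with a median log2 fold change of -0.05. A list of 16 genes beside *Spo11* (10 tested) held 2, *Rae1* and *Rbm38*, at a median of -0.23, against a median of -0.02 over all tested genes. Over chromosomes, called genes were most numerous on chromosome 6 (6 of 1159 tested, 0.518%). Besides *Cul1* and *Ezh2*, these were *Akr1b8* (chr6:34354119-34368463), *Gm18765* (chr6:50627680-50628339), *Halr1* (chr6:52102949-52113684) and *Arl8b* (chr6:108783099-108825278). There were 5 of 1615 (0.31%) on chromosome 2 and 5 of 1350 (0.37%) on chromosome 4. On chromosome 2, *Raly* (chr2:154791096-154867261) lies between the 2 pairs. The share was highest on the mitochondrial chromosome, at 3 of 27 (11.1%).

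**Figure D4:**
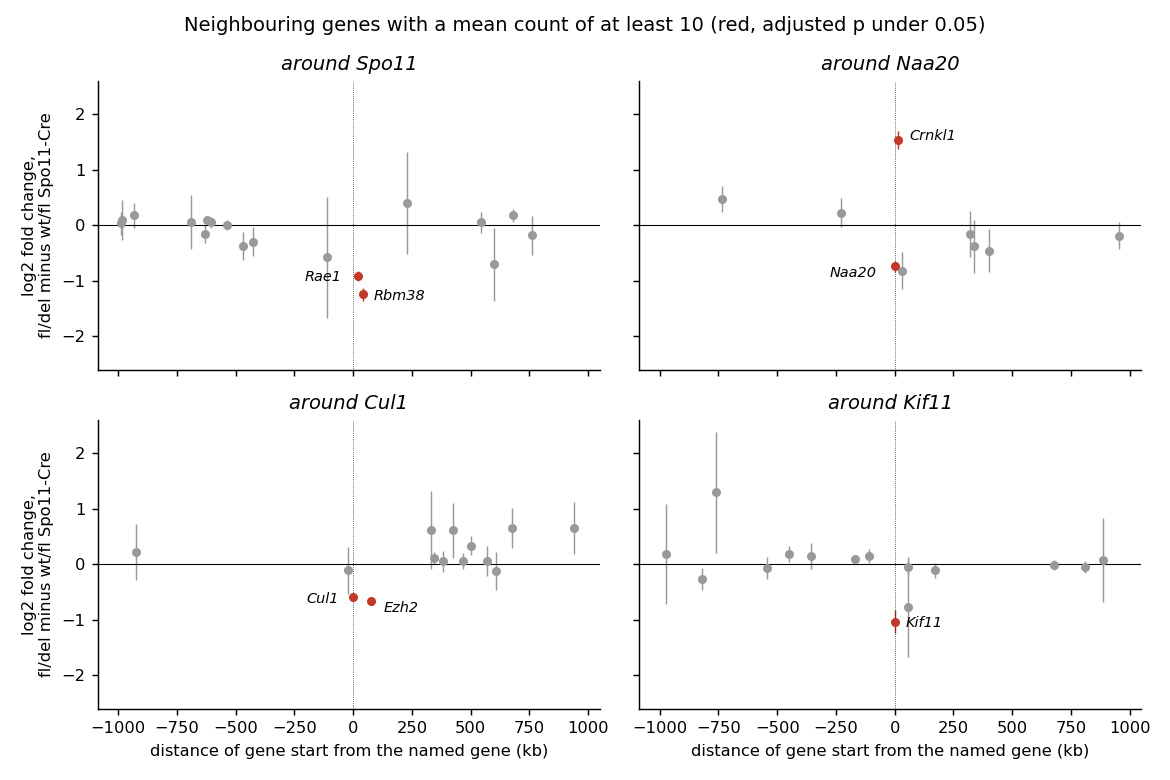
Log2 fold change of fl/del against wt/fl Spo11-Cre (points, with SE) of genes with a mean count of at least 10, by distance in kb of their start from that of *Spo11*, *Naa20*, *Cul1* or *Kif11* (dotted line). The called genes, in red, are *Rae1* and *Rbm38*, *Naa20* and *Crnkl1*, *Cul1* and *Ezh2*, and *Kif11*, and the genes further out are grey.

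The promoters of the pairs on chromosome 2 are shown because adjacent genes moved together in one pair and apart in the other. The sequences run from 100 bases before to 20 bases after the RefSeq start (GRCm38.p6), 5′ to 3′ on the gene's strand, and capitals mark CCGGAAG on either strand, a motif noticed in these sequences and then counted:
Rae1 chr2:173000017-173000136 (+): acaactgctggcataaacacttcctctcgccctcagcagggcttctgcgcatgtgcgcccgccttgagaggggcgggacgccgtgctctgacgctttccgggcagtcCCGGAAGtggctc
Rbm38 chr2:173021802-173021921 (+): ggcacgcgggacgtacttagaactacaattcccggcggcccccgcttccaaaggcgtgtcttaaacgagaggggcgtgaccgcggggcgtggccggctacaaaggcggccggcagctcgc
Naa20 chr2:145903141-145903260 (+): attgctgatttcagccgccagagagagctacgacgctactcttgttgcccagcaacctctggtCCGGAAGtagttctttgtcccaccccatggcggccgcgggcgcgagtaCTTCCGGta
Crnkl1 chr2:145934681-145934800 (-): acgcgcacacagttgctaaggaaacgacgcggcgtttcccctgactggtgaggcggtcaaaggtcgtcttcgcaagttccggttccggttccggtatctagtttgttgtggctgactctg
The motif is in the windows of *Rae1* and *Naa20* and not in those of *Rbm38* and *Crnkl1*, and 5.77% of 32851 promoters hold it in a window of the same length.

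Among the other genes that were lower in fl/del, *Akr1b8*, *Zcchc7*, *Kbtbd11* and *Gm13041* were called in each of 19 alternative analyses. *Akr1b8*, an aldo-keto reductase with close paralogs beside it, was at 60.4, 62.0, 46.2 and 60.8 CPM in fl/del and at 137, 140, 87.0, 105 and 120 CPM in wt/fl Spo11-Cre (log2 fold change -1.04, SE 0.12, adjusted p = 1.85e-08). *Zcchc7*, a subunit of the TRAMP complex that feeds nuclear RNA to the exosome, was at 56.2, 57.9, 65.8 and 56.3 CPM against 88.0, 93.9, 96.5, 95.5 and 106 CPM (-0.71, SE 0.11, adjusted p = 2.59e-05). *Kbtbd11*, a BTB and kelch domain protein, was at 7.42, 8.17, 8.88 and 3.33 CPM against 21.6, 18.8, 23.2, 22.2 and 18.8 CPM (-1.61, SE 0.24, adjusted p = 2.04e-05). *Gm13041*, an unprocessed pseudogene, was at 22.5, 29.3, 23.0 and 24.6 CPM against 40.2, 44.4, 43.1, 49.1 and 39.5 CPM (-0.80, SE 0.15, adjusted p = 0.00179). None of these genes overlapped between the groups. In the reference libraries *Zcchc7* (0.78, adjusted p = 1.34e-05) and *Gm13041* (0.73, adjusted p = 0.0106) were higher where Cre was present. *Akr1b8* (0.44, adjusted p = 0.108) and *Kbtbd11* (0.91, adjusted p = 0.0876) had values in the same direction that missed the threshold.

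Further genes that fell were *Sgms2*, a sphingomyelin synthase (-1.52, adjusted p = 0.007), *Raly*, an hnRNP family RNA-binding protein (-0.95, adjusted p = 0.0346), *H2-Oa*, a chain of the MHC class II regulator H2-O (-0.84, adjusted p = 0.0154), *Dnajc5g*, a DnaJ protein (-0.78, adjusted p = 0.0149), *Sptssa*, a small subunit of serine palmitoyltransferase (-0.74, adjusted p = 0.0227), and *Halr1*, a non-coding RNA of the *Hoxa* region (-1.80, adjusted p = 0.0483). *Sgms2* was at 4.48, 3.16, 4.72 and 9.38 CPM in fl/del and at 13.9 to 17.1 CPM in wt/fl Spo11-Cre. *Halr1* was called in 8 of 19 alternative analyses, and leaving out any of 8 of the 9 libraries ended its call. The remaining genes that fell had log2 fold changes between -1.94 and -0.44. They include *Rnf25*, a ubiquitin ligase, *Mgmt*, which repairs alkylated guanine, *Timd4*, a phosphatidylserine receptor, *Elf3*, an ETS family transcription factor, and *Tex15*, which acts in germ cells. *E330016L19Rik*, at the end of that range, was at 2.36 to 4.29 CPM in fl/del and at 21.6, 3.07, 21.7, 11.7 and 2.48 CPM in wt/fl Spo11-Cre, so that its groups overlapped and 3 libraries carried its difference.

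Among the genes that were higher in fl/del, the largest log2 fold changes were those of the sparsely counted *Gm18765* and *Arhgef40*, given below, and of *Crnkl1*. The others were between 0.37 and 0.85. *Ighg2b*, annotated as an immunoglobulin heavy constant region, was at 312, 286, 293 and 327 CPM in fl/del and at 222, 236, 215, 228 and 190 CPM in wt/fl Spo11-Cre (0.48, SE 0.09, adjusted p = 0.00161). It was lower with Cre also in the reference libraries (-0.50, adjusted p = 0.00186). *Dhx29*, a helicase of translation initiation, was at 71.7, 72.8, 70.2 and 74.5 CPM in fl/del and at 60.5, 48.6, 50.3, 42.9 and 44.8 CPM in wt/fl Spo11-Cre (0.54, adjusted p = 0.0133), and was lower with Cre in the reference libraries (-0.64, adjusted p = 0.00281). Both are thus lower in all 9 libraries with Cre than in any of the 8 without.

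Other genes that rose in fl/del were *Ptgr1*, a prostaglandin reductase (0.73, adjusted p = 0.0013), *Atad2*, a bromodomain ATPase (0.85, adjusted p = 0.0134), *Abcb1b*, an efflux transporter with a close paralog (0.56, adjusted p = 0.00628), *Lpin2*, a phosphatidate phosphatase (0.37, adjusted p = 0.0346), *Arl8b*, a GTPase of lysosome positioning (0.45, adjusted p = 0.0309), *Dpy19l1*, a C-mannosyltransferase (0.51, adjusted p = 0.0432), *Gse1* (0.75, adjusted p = 0.0317) and *Zfp839* (0.67, adjusted p = 0.0261). Their CPM did not overlap between the groups, which was a condition for naming them. *Cldn15* (0.84, adjusted p = 0.0254) and *Arntl* (0.52, adjusted p = 0.0226) rose too, and their groups overlapped. *Gm18765*, a predicted gene, was at 2.62, 1.37, 3.89 and 3.98 CPM in fl/del and at 0.651 CPM or less in wt/fl Spo11-Cre, where 3 libraries had no count. *Arhgef40* was called (2.46, adjusted p = 0.0133) on values of 4.61, 26.1, 0.555 and 10.1 CPM against 0.607 to 4.00 CPM that overlapped, and its call was lost without fl/del replicate 2, in DESeq2 and in 3 other alternatives.

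The called genes were then followed in the comparison that shares no library with the first, fl/del Spo11-Cre against wt/fl. In it the del allele and Cre are both on the same side, whereas in fl/del against wt/fl Spo11-Cre they are on opposite sides. The signs are given as a description, and an attribution of single genes to Cre or to the del allele was not tested. Opposite signs were found for 42 of the 45 called genes, compared with 56.9% of all tested genes. Of the 30 genes lower in fl/del, 28 were higher with Cre in the second comparison, and of the 15 genes higher in fl/del, 14 were lower there. The remaining 3 were *Kif11*, *E330016L19Rik* and *Arl8b*, and *Arl8b* was at 0.00 in the second comparison. Both comparisons were fitted in one model, and their spread is estimated over the same 17 libraries.

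In that second comparison 44 of 22383 genes (0.197%) were called in all, and 13 of the 45 genes (28.9%) were among them. They were *Kif11*, *Rae1*, *Rbm38*, *Naa20*, *Crnkl1*, *Cul1*, *Ezh2*, *Zcchc7*, *Gm13041*, *Rnf25*, *Timd4*, *Dhx29* and *Ighg2b*, and all but *Kif11* had opposite signs. For 16 of the 45 genes all 9 libraries with Cre lay apart from all 8 libraries without Cre. The share over all tested genes was not computed, so this count is a description only. Since 9 of these 17 libraries made the calls, only the position of the other 8 is new information. *Kif11* was the exception among the genes called in both, with -1.03 in the first comparison and -4.29 in the second (adjusted p = 2.23e-19). Carriage of Cre, the insertion of the transgene and chromosome segments inherited with it cannot be told apart in these libraries.

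**Figure D5:**
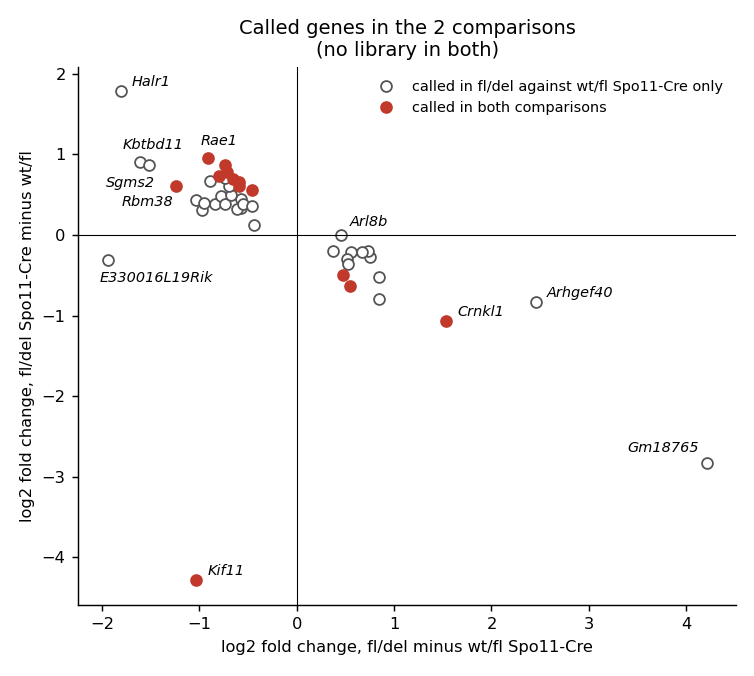
Log2 fold changes of the 45 called genes (points) in fl/del against wt/fl Spo11-Cre (horizontal axis) and in fl/del Spo11-Cre against wt/fl (vertical axis), comparisons that share no library. The 42 genes at the upper left and lower right have opposite signs, and *Kif11*, at -1.03 and -4.29, lies in the lower left.

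Genes of the spindle were next examined because KIF11 works there. Apart from *Kif11*, which was not in this list, none of 55 tested kinesin and spindle assembly genes passed the test in edgeR. Their median log2 fold change was 0.06, in a range of -0.84 to 0.62. Of the 55 genes, 10 had an unadjusted p under 0.05, a larger share than the 9.24% of all tested genes. The list was not tested as a set. The lowest p was that of *Ndc80*, an outer kinetochore component, at 218, 221, 195 and 192 CPM in fl/del and 175, 146, 173, 141 and 157 CPM in wt/fl Spo11-Cre (0.38, SE 0.09, adjusted p = 0.0624). *Kif18a*, a kinesin that limits microtubule length, had -0.21 (adjusted p = 0.464) and *Mad1l1*, of the spindle checkpoint, 0.29 (adjusted p = 0.479). Other genes that the study names had log2 fold changes of -0.02 for *Map4* (SE 0.12, adjusted p = 0.99), 0.19 for *Cep192* (SE 0.15, adjusted p = 0.746), 0.12 for *Dlgap5* (SE 0.09, adjusted p = 0.719) and 0.01 for *Ran* (SE 0.13, adjusted p = 0.999). *Dlgap5*, which encodes the spindle protein HURP, was at 261 to 294 CPM in fl/del and at 230 to 272 CPM in wt/fl Spo11-Cre, and the groups overlapped.

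The lists that describe the oocyte's state held no called gene, with 1 exception. None passed among 40 tested genes of meiotic arrest and the cell cycle (median log2 fold change 0.07), 41 oocyte identity and maternal-effect genes (-0.01), 39 genes of mRNA storage, translation and decay (0.11), 35 DNA damage and apoptosis genes (-0.04), 26 synapsis and recombination genes (-0.02), 31 actin and cortex genes (-0.04) and 28 stress genes (-0.06). *Ezh2* was the one call among 35 DNA methylation and chromatin genes (median 0.04). Genes with unadjusted p under 0.05 were counted in these 8 lists, in the order given. They were 3 of 40, 7 of 41, 6 of 39, 1 of 35, 2 of 26, 3 of 31, 5 of 28 and 5 of 35. Over all tested genes the share was 9.24%. The shares of the maternal-effect, mRNA storage, stress and chromatin lists were larger, on counts of only 5 to 7 genes each. These lists were not tested as sets, and no result about them is drawn from these counts. Cytosolic ribosomal protein genes (77 tested, median -0.11) and clustered histone genes (40 tested, median -0.18) also held none, with 8 and 2 at an unadjusted p under 0.05.

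Some members of these lists with the lowest p are given as log2 fold changes. *Adcy3* (-3.60, adjusted p = 0.343), of the cell cycle list, and *Fos* (-3.77, adjusted p = 0.248), of the stress list, were thinly counted. Their mean counts were 9.44 and 9.56. *Uhrf1*, of the chromatin list, had 0.25 (adjusted p = 0.482), and -0.49 in the second comparison (adjusted p = 0.023). *Fzr1*, an activator of the anaphase-promoting complex that maintains prophase arrest, had 0.25 (adjusted p = 0.528) and *Mapk3* 0.20 (adjusted p = 0.526). The secreted oocyte factors *Gdf9* and *Bmp15* had 0.22 (adjusted p = 0.495) and 0.20 (adjusted p = 0.464), and *Zp1*, of the zona pellucida, 0.26 (adjusted p = 0.309). *Cpeb1*, which controls cytoplasmic polyadenylation, had 0.31 (adjusted p = 0.262), *Cnot6l*, a deadenylase, 0.25 (adjusted p = 0.35) and *Dazl*, a translational activator, -0.20 (adjusted p = 0.417). *Hormad2*, of the meiotic chromosome axis, had -1.23 (adjusted p = 0.208) and *Tet1*, a 5-methylcytosine dioxygenase, -0.91 (adjusted p = 0.115). *Hspb1*, a small heat shock protein, had -1.01 (adjusted p = 0.115), and in the reference libraries it was higher where Cre was present (1.36, adjusted p = 0.00909).

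Among 13 mitochondrially encoded protein genes, 3 fell in fl/del, against 0.134% of all tested genes. They encode subunits of respiratory complex I, as do 7 of the 13. They were *mt-Nd2* (-0.57, SE 0.13, adjusted p = 0.0278), *mt-Nd5* (-0.67, SE 0.14, adjusted p = 0.0133) and *mt-Nd6* (-0.98, SE 0.20, adjusted p = 0.0149). *mt-Nd5* was at 68.4, 104.0, 66.9 and 64.7 CPM in fl/del and at 109, 136, 126, 127 and 108 CPM in wt/fl Spo11-Cre, and *mt-Nd6* at 12.8, 18.6, 7.22 and 13.7 CPM against 28.1, 26.1, 28.0, 22.7 and 25.1 CPM. Neither overlapped. *mt-Nd2* was at 68.3, 104.5, 64.1 and 67.6 CPM against 107, 117, 119, 135 and 87.1 CPM, and its groups overlapped. In all 3 genes fl/del replicate 2 was the highest of its group. *mt-Nd6* lies on the other strand and overlaps the end of *mt-Nd5*, and the kit does not mark strand. The median of the 13 genes was -0.48. Of the 13, 7 had an unadjusted p under 0.05, a much larger share than the 9.24% of all tested genes.

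In fl/del the 13 genes summed to 1441 ± 278 CPM (SD, n = 4), against 1867 ± 289 CPM (SD, n = 5) with the wild-type allele and Cre, with an exact permutation p of 0.0476 that became 0.0635 with TMM library sizes. The calls of all 3 genes were lost without fl/del replicate 3, and again without fl/del replicate 4. In wt/fl without Cre, *mt-Nd5* was at 112, 58.8, 125 and 72.2 CPM, a wider range than that of either genotype above. The second comparison had 0.50 for *mt-Nd5* (adjusted p = 0.139) and 0.31 for *mt-Nd6* (adjusted p = 0.635).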

How the data were processed

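Poly(A) RNA was amplified as full-length cDNA (SMART-seq v4) and made into Nextera XT libraries. Reads were trimmed (fastp), mapped to GRCm38 (HISAT2 2.2.1) and, where unique, counted per gene (featureCounts 2.0.3) by the authors. The deposited counts cover 54232 genes, as raw whole numbers. Counts of the all-exon table were 1.96 times those of the exon 22 table (median), so levels were computed within each table, and counts of the all-exon table are not fully independent events. The deposited TPM values, computed by the authors in a way not given in the sources used here, served in an alternative.

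Libraries were grouped by their labels. All-exon counts of the 17 libraries of the Spo11-Cre background were fitted together in edgeR 4.0.16 (R 4.3.3; TMM, estimateDisp, glmQLFit, glmQLFTest) for genes with a count in at least 3 libraries, and genes with a Benjamini-Hochberg adjusted p under 0.05 over all 22383 tested genes are called. CPM are counts per 1000000 of a library's total. Symbols and positions are from GENCODE vM21 (GRCm38). Single levels were compared with two-sided exact permutation tests. On simulated counts for fl/del against wt/fl Spo11-Cre over 22383 genes, changes were put into some of the well-counted genes. Of these genes, 41.8% of those changed 1.5-fold, 76.1% of those changed 2-fold and 98.5% of those changed 4-fold were recovered, with 6 false calls. The shares do not extend to thinly counted genes. Simulated libraries were independent, so likeness within a name prefix was not simulated. Alternatives were RLE factors, DESeq2 1.42.0, limma 3.58.1 on log2(TPM + 1), other filters, other sets of libraries, a replicate block, summed name prefixes, the exon 22 table and leaving out each library.

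The compared genotypes and the gene lists were chosen with earlier results of these data known. Named genes are *Kif11*, genes that the study names, called members of the lists, and some of the list members with the lowest p. Added to them were the 12 per direction with the largest fold change. These 12 were taken among called genes with a mean count of at least 10 and no overlap between groups. Permutation tests and intervals were computed with scipy 1.17.1 in Python 3.11.15.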

Additional observations from a re-analysis of the deposited data

Results flagged for a closer look

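Values below were checked with Dixon's criterion at 95%, by which chance marks about 1 in 20 groups, over 118 groups of libraries. In fl/del, replicate 3 stood apart by its total count of 7205010 and by its levels of *Akr1b8* (46.2 CPM) and *Zfp839* (29.0 CPM), each the lowest of its group. Replicate 2 stood apart by *mt-Nd2* (104.5 CPM), *mt-Nd5* (104.0 CPM) and the sum of the mitochondrially encoded genes (1853 CPM), each the highest. In wt/fl Spo11-Cre, replicate 1 stood apart by *Gm18765* (0.651 CPM) and replicate 5 by the sum of the ribosomal protein genes (11960 CPM). *Kif11* was marked because the effect of Cre differed between fl/del and wt/fl oocytes in the same edgeR fit, by -2.32 on the log2 scale (adjusted p = 1.21e-05). The genotypes set such a difference in advance, since Cre removes the only functional allele in fl/del, whereas wt/fl keeps the wild-type allele.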

How the results depend on the processing

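Of the 45 called genes, 10 (*Rae1*, *Rbm38*, *Naa20*, *Cul1*, *Ezh2*, *Akr1b8*, *Zcchc7*, *Kbtbd11*, *Gm13041* and *Ighg2b*) were called in each of the 19 alternatives that tested them, 13 in each of the 9 analyses that left out a library, and none changed sign. The number of called genes (all, higher, lower in fl/del) was 116, 44 and 72 without a filter, 25, 9 and 16 with filterByExpr, 20, 6 and 14 with all 21 libraries, 93, 37 and 56 in DESeq2, and 16, 3 and 13 in limma on log2(TPM + 1). Leaving out a library gave 20 to 50, 6 to 15 and 14 to 38. With a replicate block it was 99, 38 and 61, of which 42 were among the 45, but libraries with the same number deviated together little (correlations of 0.13, 0.00, -0.04 and -0.01), so the numbers pair nothing. Of the 93 genes called in DESeq2, 86 had opposite signs in the second comparison. *Kif11* in fl/del stayed between 44.9 and 54.5% of wt/fl Spo11-Cre without any library, with exact p from 0.0286 to 0.0357, which are the smallest values those library numbers allow and say nothing of stability. In limma, 31 of the 45 calls were lost. Genes near 0 or hardly counted changed sign: *Map4* at 0.018 with summed prefixes and from -0.12 to 0.030 without a library, *Ran* at -0.021 with the block and from -0.11 to 0.13, *Pmaip1* from -0.81 to 3.71 and *Cd3e* from -3.705 to 2.25. With 4 and 5 libraries, changes near 1.5-fold were often missed in simulated counts of well-counted genes.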
